A study of Mus musculus with 18 samples.

Results

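Among the 8 female kidneys of the series, 3 had low and 5 had high levels of 5 transcripts, of interferon response, glucocorticoid response and heme breakdown. The low-state set comprised LP female 1, LP female 2 and NP female 3, and the high-state set comprised LP females 3, 4 and 5 and NP females 1 and 2. These 8 of 18 libraries were chosen by their measured levels of *Fkbp5*, *Ifit1*, *Rsad2*, *Cxcl10* and *Hmox1*, so the difference between the sets in these genes, and in any gene of the same libraries, was described without a test. All mice were wild-type, outbred CD-1 animals aged 6 wk, from dams fed 8% protein (LP) or 18% protein (NP) through gestation and lactation, with the 18% diet given to all offspring after weaning. Every mouse had received horse spleen cationic ferritin, an iron-bearing contrast agent for counting glomeruli by MRI, and female kidneys were taken 24 h after its last dose. The kidneys of the 10 males, 5 LP and 5 NP, were taken 1.5 h after it, so sex and collection time cannot be told apart. RNA came from a piece of the left kidney, with 1 library per mouse, and the labels tie no mouse to a litter.

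Type I and type II interferons act through JAK kinases and STAT proteins to switch on antiviral genes, such as the IFIT and OAS families, and chemokines that attract T cells. Glucocorticoids act through the receptor encoded by *Nr3c1*, a transcription factor whose well-known targets include *Fkbp5*, a co-chaperone that restrains the receptor, and *Zbtb16* and *Tsc22d3*. *Hmox1* encodes heme oxygenase, which breaks down heme and releases its iron. In the kidney, interferon genes, acute-phase genes and injury markers such as *Havcr1* can be expressed by tubular epithelium itself, and in bulk RNA a change in the number of cells of a type cannot be told apart from a change in RNA per cell.

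Promoters of the interferon-responsive genes among the 5 are shown because they carry the short elements through which such genes are known to be switched on. RefSeq promoters of build GRCm38.p6 (250 bases before to 50 after the start) were searched on both strands for GAAANNGAA, the core of the interferon-stimulated response element, for GGANTTTCC, an NF-κB site, and for ACANNNTGT, the core of the glucocorticoid response element. Capitals mark the matches, and the sequences run 5′ to 3′ along the gene's own strand. The promoter of *Ifit1* lies at chr19:34640639-34640938 on the plus strand, that of *Rsad2* at chr12:26456403-26456702 on the minus strand, and that of *Cxcl10* at chr5:92348840-92349139 on the minus strand.
Ifit1: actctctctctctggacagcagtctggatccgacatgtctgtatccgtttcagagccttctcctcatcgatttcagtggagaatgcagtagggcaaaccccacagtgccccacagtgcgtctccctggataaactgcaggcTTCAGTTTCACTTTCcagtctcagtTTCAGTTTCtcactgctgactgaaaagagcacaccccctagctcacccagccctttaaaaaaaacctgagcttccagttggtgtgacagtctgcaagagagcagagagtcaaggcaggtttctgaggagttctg
Rsad2: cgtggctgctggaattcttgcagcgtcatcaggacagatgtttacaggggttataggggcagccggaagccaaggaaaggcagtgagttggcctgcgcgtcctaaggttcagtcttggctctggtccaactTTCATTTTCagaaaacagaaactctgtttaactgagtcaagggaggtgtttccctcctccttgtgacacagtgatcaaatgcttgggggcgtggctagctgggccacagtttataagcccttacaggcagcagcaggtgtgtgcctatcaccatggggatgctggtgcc
Cxcl10: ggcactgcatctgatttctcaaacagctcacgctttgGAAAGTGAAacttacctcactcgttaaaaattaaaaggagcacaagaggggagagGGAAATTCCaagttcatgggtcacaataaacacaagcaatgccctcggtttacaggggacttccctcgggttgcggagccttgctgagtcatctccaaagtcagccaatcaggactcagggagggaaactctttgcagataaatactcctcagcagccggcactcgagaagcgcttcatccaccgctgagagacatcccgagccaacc
The *Ifit1* promoter held 3 matches to GAAANNGAA, of which 2 overlap each other, and the *Rsad2* promoter held 1. *Cxcl10* had 1 match to GAAANNGAA and 1 to GGANTTTCC. Of all 32851 promoters in the table, 8.56% held GAAANNGAA, 1.25% held GGANTTTCC and 6.85% held ACANNNTGT. The *Fkbp5* promoter held none of these letters, and *Hmox1* was not matched. Since the table held a promoter for 74.5% of the genes tested below, motif shares were not compared between gene sets.

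Levels are given as CPM, the reads of a gene scaled to a common library total, after TMM scaling over the 8 female libraries. *Cxcl10*, a chemokine that attracts T cells (chr5:92494497-92496748, GRCm39), had 3.27, 3.84 and 6.81 CPM in LP female 1, LP female 2 and NP female 3. It had 278, 452, 798, 509 and 1400 CPM in LP females 3, 4 and 5 and NP females 1 and 2. The means were 4.64 ± 1.90 CPM (SD, n = 3) and 687 ± 440 CPM (SD, n = 5), a log2 difference of 7.23 in which the lowest high-state value stood far above the highest low-state value. *Ifit1*, whose product binds viral RNA (chr19:34618271-34632174), had 4.38, 5.81 and 4.91 CPM in the low-state libraries, in the same order, and 168, 227, 635, 283 and 744 CPM in the high-state libraries. For *Rsad2*, which encodes the antiviral enzyme viperin (chr12:26492745-26506451), the low-state values were 20.2, 30.8 and 5.49 CPM and the high-state values 245, 291, 728, 292 and 883 CPM. LP female 5 and NP female 2 were the highest of the 8 for all 3 of these interferon-responsive genes.

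*Fkbp5* (chr17:28618058-28737521) had 29.5, 22.3 and 46.0 CPM in the low-state libraries and 533, 429, 486, 262 and 284 CPM in the high-state libraries, a log2 difference of 3.62. Here the order differed, and the 3 high-state LP females were above the 2 high-state NP females. *Hmox1* (chr8:75820241-75827217) had 11.8, 11.9 and 12.5 CPM in the low-state set and 77.9, 41.2, 62.4, 28.0 and 114 CPM in the high-state set, a log2 difference of 2.42. The *Hmox1* gap was the narrowest of the 5, and its nearest libraries were NP female 3 on the low side and NP female 1 on the high side.

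**Figure D1:**
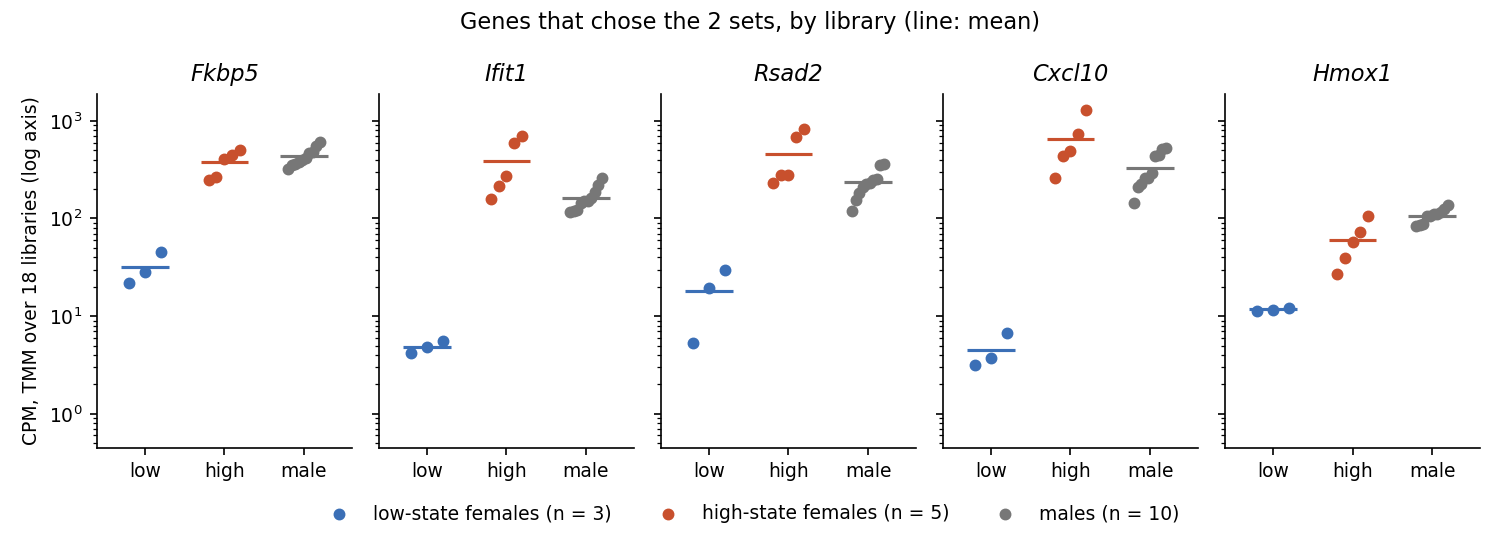
CPM of the 5 genes that chose the sets, on a log axis, in the 3 low-state females, 5 high-state females and 10 males, scaled by TMM over all 18 libraries; lines are means. The low-state libraries lie below the other 15 libraries for each of the 5 genes.

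The males, which were not used to choose the sets, had levels that overlapped those of the high-state females for these genes on a scale set over all 18 libraries. *Fkbp5* ranged from 325 to 607 CPM in males with a median of 407 CPM, *Cxcl10* from 144 to 525 CPM with a median of 276 CPM, and *Hmox1* from 84.0 to 138 CPM with a median of 108 CPM. All 10 males were above all 3 low-state females for each of the 5 genes. Between the sexes, collection time differed as well, so no effect of sex was read from these values.

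Of 78239 genes listed, 13510 had at least 10 counts in every female library and were compared. A gene was called when the 5 high-state values did not overlap the 3 low-state values and the fitted difference was at least 1.5-fold. By this rule 1154 genes (8.54%) were higher and 803 genes (5.94%) were lower in the high-state set. The counts of called genes in the lists below stand beside these shares of all genes. Large differences among the genes compared were mostly in the upward direction, with 165 higher genes and 16 lower genes at 4-fold or more and 32 against 0 at 16-fold or more. The count limit leaves out genes near 0 in a set. Of these, 673 had 10 counts in every high-state but not every low-state library, and 976 the reverse. The median log2 difference of all genes was -0.02. When libraries were scaled by their totals after removing mitochondrial and the 10 most abundant genes, the median became -0.16 and the calls were 834 higher and 1299 lower genes, so that the share of called genes that were higher went from 59.0% to 39.1%. Both diets were on each side of the comparison, with a single low-state library among the NP females. Without NP female 1, 1271 genes were lower.

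**Figure D2:**
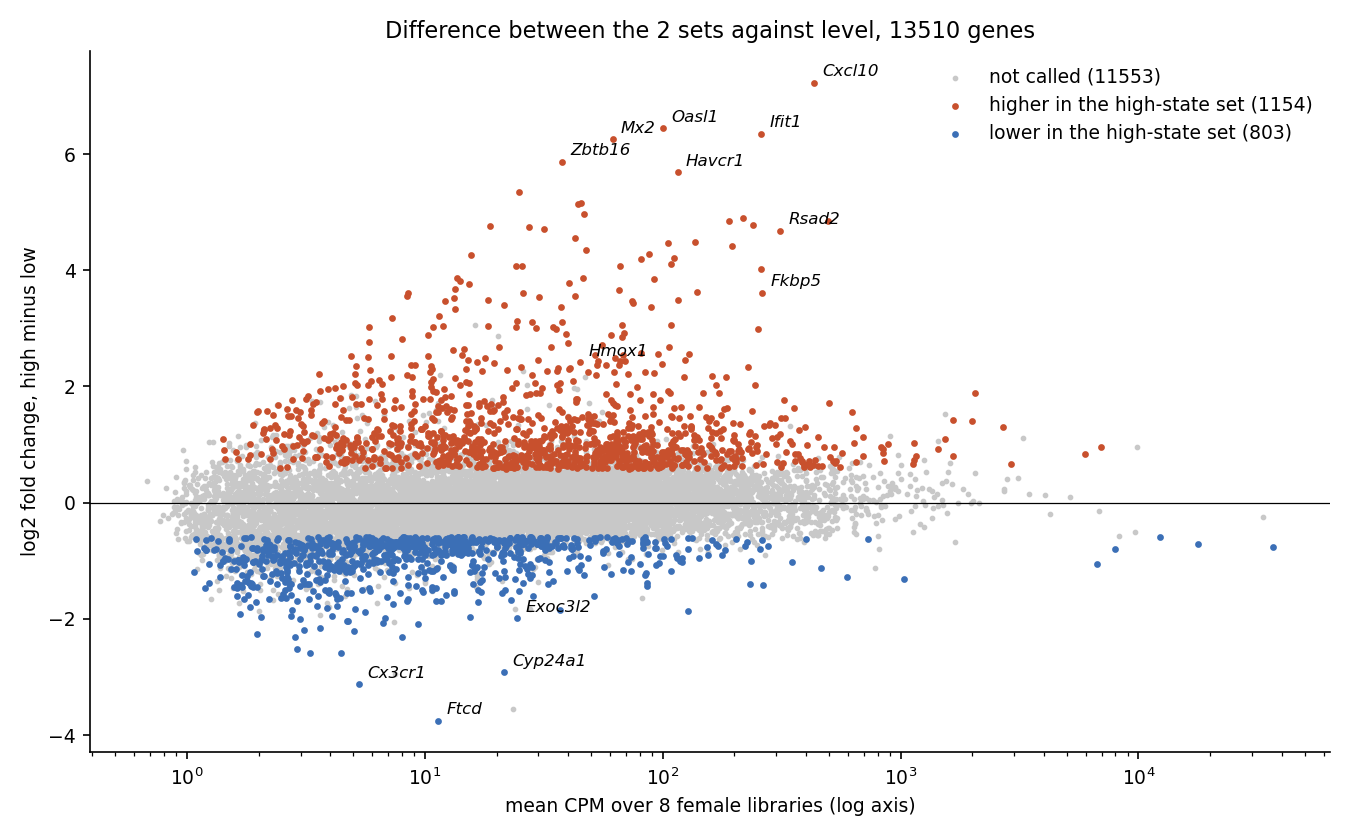
Log2 difference (high-state minus low-state) against mean CPM over the 8 female libraries (log axis) for 13510 genes, with the 1154 higher genes in orange and the 803 lower genes in blue. Differences over 4 on the log2 scale are all in the upward direction, and the deepest downward difference among called genes is that of *Ftcd*.

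Among genes with 10 counts in every library and a mean count of at least 50, the largest upward differences next to *Cxcl10* and *Ifit1* were in *Oasl1*, an OAS-like antiviral gene, at 159 ± 76.1 CPM in the high-state set and 1.81 ± 0.83 CPM in the low-state set, and *Mx2*, a dynamin-like antiviral GTPase, at 97.7 ± 36.1 and 1.28 ± 0.52 CPM. *Zbtb16*, a zinc-finger transcription factor and glucocorticoid target, had 1.06, 1.14 and 0.81 CPM in the low-state libraries and 77.0, 41.7, 87.7, 31.5 and 60.8 CPM in the high-state libraries. *Havcr1*, which encodes the tubular injury marker KIM-1, had 1.68, 3.63 and 5.49 CPM against 342, 104, 106, 195 and 167 CPM. For both genes every high-state value was many times every low-state value. *Serpina3g*, *Serpina3h*, *Usp18*, *Parp14*, *Ifit3*, *Ifit3b*, *Ifit2* and *Cxcl1* were also among the 15 highest, with log2 differences from 5.35 for *Serpina3g* to 4.76 for *Cxcl1*, a neutrophil-attracting chemokine. *Serpina3g* and *Serpina3h*, like *Ifit3* and *Ifit3b*, are close copies whose shares of reads are uncertain, and *Serpina3h* is annotated as a noncoding RNA.

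Interferon-stimulated genes were higher with few exceptions. Of 48 genes on the list, 41 had 10 counts in every library, 38 of these were higher and 1 was lower, and their median log2 difference was 2.84. Without *Ifit1* and *Rsad2*, which chose the sets, 36 of 39 were higher, with a median of 2.68. *Irf7*, which amplifies type I interferon production, had 51.4 ± 7.39 CPM (SD, n = 3) against 143 ± 49.0 CPM (SD, n = 5). Among the genes compared, the one called lower was *Ifi27*, an interferon-induced mitochondrial membrane gene. It was at 58.3 to 76.9 CPM in high-state and 94.8 to 115 CPM in low-state libraries. The 7 list members below the count limit included *Mx1*, with 10, 5 and 8 counts in the low-state libraries and 293 to 1225 counts in the high-state libraries, and *Isg15*, at 0.56 ± 0.59 against 7.77 ± 3.00 CPM. The interferon-induced gene *Ifi44l*, also below the limit, went the other way. It had 2.70, 10.7 and 4.03 CPM in low-state and 0.24 to 0.83 CPM in high-state libraries.

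Of 17 genes more typical of interferon gamma, 16 were higher, with a median log2 difference of 4.07, and without *Cxcl10*, which chose the sets, 15 of 16 were higher, with a median of 3.87. *Gbp2*, a guanylate-binding protein, had 7.37 ± 2.98 CPM in low-state and 165 ± 35.6 CPM in high-state kidneys. *Cd274*, which encodes PD-L1, had 3.65 ± 0.81 and 73.7 ± 29.8 CPM, and the adhesion molecule *Icam1* had 9.40 ± 4.03 and 214 ± 45.5 CPM. *Irf8* was not called, with a log2 difference of 0.46. *Ifng* itself was listed at 0 in all 3 low-state libraries and had at most 0.13 CPM in a high-state library. Of the receptors and sensors, 6 of 14 were higher, among them *Tlr3*, the sensor of double-stranded RNA, with a log2 difference of 1.88, while the receptor subunit *Ifnar1* had a log2 difference of 0.13 and was not called.

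Of the class I antigen presentation list, 9 of 18 genes were higher and none was lower, with a median log2 difference of 1.00. The called genes were led by *Nlrc5*, the class I transactivator, at 36.1 ± 13.5 against 4.48 ± 1.88 CPM, and *Tap1*, a subunit of the peptide transporter, at 102 ± 33.3 against 13.6 ± 5.44 CPM. The light chain *B2m* and the heavy chains *H2-K1* and *H2-D1* were not called, with log2 differences of 0.06, 0.41 and -0.26. Of 8 class II genes, *Cd74* and *H2-Eb1* were higher (25.0%) and *H2-DMb2* was lower (12.5%).

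Glucocorticoid targets were higher in 21 of the 36 compared, and all 36 had a positive difference, with a median log2 difference of 1.36. Without *Fkbp5*, which chose the sets, 20 of 35 were higher, with a median of 1.34. The median of the whole list was 1.80 among LP females and 0.77 among NP females. *Map3k6* had 1.58 ± 1.00 CPM in low-state and 21.6 ± 6.22 CPM in high-state kidneys, *Cdkn1a*, a cell-cycle inhibitor that is also a p53 target, had 3.98 ± 1.39 and 45.9 ± 14.8 CPM, and *Angptl4*, an inhibitor of lipoprotein lipase, had 15.8 ± 12.2 and 176 ± 50.6 CPM. *Tsc22d3*, which encodes GILZ, had 53.8, 44.6 and 93.1 CPM in the low-state and 132, 161, 158, 192 and 150 CPM in the high-state libraries. *Per1* and *Dusp1* were not called, since NP female 3 overlapped the high-state set, at 93.4 CPM for *Per1* and 92.5 CPM for *Dusp1*. The receptor gene *Nr3c1* was not called either, at 109 ± 12.7 CPM (SD, n = 3) in low-state and 80.6 ± 29.1 CPM (SD, n = 5) in high-state kidneys. Among 9 genes of glucocorticoid reception and metabolism, 1 was called higher (11.1%, against 8.54% of all genes). It was *Serpina6*, which encodes corticosteroid-binding globulin, at 16.03 ± 8.06 against 82.8 ± 60.3 CPM. High-state LP female 4 had the highest median of the glucocorticoid list, 1.68 above the low-state mean on a log2 scale over all 18 libraries, while NP female 2 had the lowest at 0.97. For the interferon-stimulated list NP female 2 was the highest high-state library at 3.14 and LP female 3 the lowest at 2.19.

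The heme and iron list, which holds *Hmox1*, was mixed. Of 28 genes compared, 6 were higher and 1 was lower, with a median log2 difference of 0.15 that became 0.01 when totals without mitochondrial and the 10 most abundant genes set the scale. Besides *Hmox1*, the higher genes were *Slc39a14*, a zinc and iron transporter (1.53), the ferroxidase *Cp* (1.49), the endocytic receptor *Lrp2* (1.30), *Alas1*, the first enzyme of heme synthesis (1.08), and the ferrireductase *Steap3* (0.94), each given as a log2 difference. The ferritin heavy chain *Fth1* was not called, at 3814 ± 176 CPM (SD, n = 3) against 4196 ± 643 CPM (SD, n = 5). Of 27 targets of NRF2, the oxidative-stress factor, 2 were higher, *Sqstm1* and *Abcc1*, a share of 7.41% against 8.54% of all genes.

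NF-κB-linked and acute-phase genes were higher in 9 of 26 and lower in 3, with a median log2 difference of 1.04. *Relb*, an NF-κB subunit, had 4.90 ± 0.46 CPM in low-state and 71.1 ± 13.7 CPM in high-state kidneys, and the NF-κB inhibitor *Tnfaip3* had 6.37 ± 1.78 and 51.4 ± 20.2 CPM. *Fga*, a fibrinogen chain, had 12.1 ± 2.55 and 100.2 ± 60.9 CPM. The 3 lower genes were the complement genes *C1qa*, *C1qb* and *C1qc*, which are made mainly by macrophages. Below the count limit, *Ccl2*, a monocyte-attracting chemokine, had 18, 10 and 5 counts in the low-state libraries and from 326 to 1538 in the high-state libraries. *Tnf* reached 0.24 CPM in low-state and 1.32 to 4.78 CPM in high-state libraries. The acute-phase genes *Saa1* and *Hp*, also below the limit, overlapped between the sets. *Saa1* had 3.58 to 13.4 CPM in low-state and 0.18 to 11.6 CPM in high-state libraries. *Hp* was at 20.6 CPM in low-state NP female 3, above every high-state library except LP female 5, at 92.2 CPM. NP female 3 and LP female 5 also had the highest medians of the adipocyte list, 1.41 and 0.98 on the log2 scale relative to the low-state mean. The other females had at most 0.11, and the part of adjacent fat in the *Hp* values was not tested.

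Tubular injury and repair genes were higher in 8 of 26 and lower in none. Besides *Havcr1* and *Cdkn1a*, the adhesion molecule *Vcam1* had 3.59 to 9.29 CPM in low-state and 87.8 to 197 CPM in high-state libraries, and *Cd44*, a hyaluronan receptor, had 1.40 to 2.42 and 6.10 to 13.8 CPM. *Lcn2*, which encodes the injury marker NGAL, was not called: NP female 2, at 10.3 CPM, lay within the low-state range of 8.76 to 14.3 CPM, and the other 4 high-state libraries had 34.3 to 53.9 CPM. Keratins *Krt8* and *Krt18* and the transcription factor *Sox9* were not called. Extracellular matrix genes were higher in 12 of 28, led by *Vcan*, *Lox* and *Tnc*, with a median log2 difference of 0.86 that was 1.34 among NP females. *Fn1*, fibronectin, had 32.3 ± 2.64 against 97.4 ± 27.5 CPM, and *Col4a1*, of basement membrane, 154 ± 19.3 against 475 ± 102 CPM, while the fibrillar collagens *Col1a1* and *Col3a1* were not called. *Vcan* was highest in NP female 2, at 27.7 CPM against 2.33 to 6.50 CPM in the other high-state libraries.

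Immediate early genes were higher in 8 of 22, with *Maff* and *Fosl2* in the lead, and their median log2 difference of 0.89 was 0.38 among NP females. Heat-shock genes were higher in 5 of 20 (25.0%). *Fosl2*, an AP-1 subunit, had 10.99 to 12.9 CPM in low-state and 49.2 to 76.3 CPM in high-state libraries, whereas *Fos* was not called, at 4.29 ± 3.22 CPM (SD, n = 3) against 11.2 ± 5.24 CPM (SD, n = 5). Fatty acid oxidation and PPAR genes were higher in 9 of 33, among them *Pdk4*, which restrains pyruvate oxidation, at 27.4 ± 21.3 against 108 ± 50.3 CPM. Of cholesterol synthesis genes, 2 of 24 were higher (8.33%) and 1 was lower (4.17%), against 8.54% and 5.94% of all genes.

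**Figure D3:**
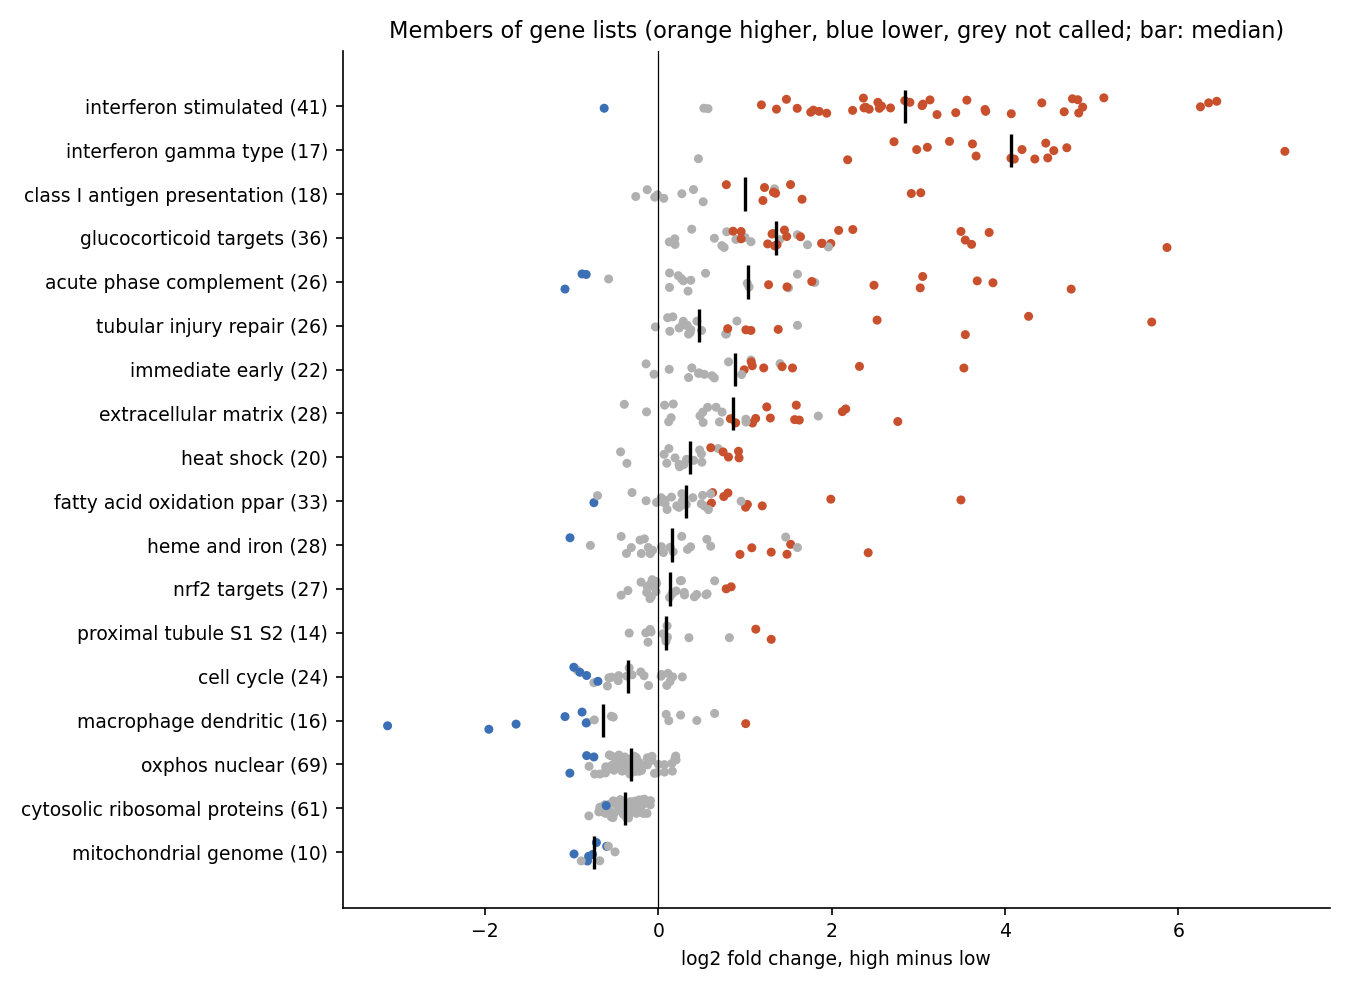
Log2 difference (high-state minus low-state) of each compared member of 18 gene lists, with the number of members in parentheses and the list median as a bar. Interferon genes lie almost wholly to the right of 0, and ribosomal protein and mitochondrial genome genes lie wholly to the left.

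Among genes lower in the high-state set, *Ftcd*, a folate and histidine enzyme, had 27.3, 22.1 and 31.3 CPM in the low-state libraries and 1.38, 2.16, 1.54, 2.14 and 2.81 CPM in the high-state libraries, a log2 difference of -3.75. On the scale of all 18 libraries its range in males, 3.53 to 30.6 CPM, overlapped that of the low-state females, 21.4 to 30.6 CPM. *Cyp24a1*, the enzyme that inactivates vitamin D, had 77.3, 33.1 and 30.6 CPM against 7.06, 3.43, 10.1, 6.30 and 4.00 CPM, and its range in males, 2.14 to 24.1 CPM, lay below the low-state females. *Cx3cr1*, the fractalkine receptor of monocytes and resident macrophages, had 10.4, 11.6 and 13.3 CPM against 1.82, 0.70, 0.57, 1.95 and 1.73 CPM. The rest of the 15 lowest ran from *Spns3* at -2.60 through *Pld4*, *Arhgap45*, *Mfng*, *B3gnt8*, *Zfp970*, *Arhgef39*, *Plcl2*, *Mmp11*, *Exoc3l2* and *Ppp1r36dn* to *Nrep* at -1.97. *Zfp970* and *Exoc3l2* were uneven between diets, with log2 differences of -2.47 and -2.59 among LP females and -0.75 and -0.64 among NP females.

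Macrophage and dendritic cell markers were lower in 6 of 16 and higher in 1, with a median log2 difference of -0.64. The median was -1.01 among LP females and -0.05 among NP females, and high-state NP female 2 was level with low-state NP female 3 (-0.19 and -0.18 relative to the low-state mean). The lower genes were *Cx3cr1*, the monocyte receptor *Ccr2*, the signalling adaptor *Tyrobp* and the 3 C1q genes, and the higher gene was *Cd14*, the lipopolysaccharide co-receptor, which tubular cells can also express. *Csf1r*, *Adgre1* and *Cd68* were not called, with log2 differences of 0.26, -0.82 and -0.52. The summed level of all 23 list genes overlapped, at 204 to 274 CPM in low-state and 204 to 233 CPM in high-state libraries. Of 14 neutrophil markers none had 10 counts in every library, and their summed level was 1.98 to 6.53 CPM in low-state and 11.3 to 35.2 CPM in high-state kidneys. *S100a9* had at most 1.19 CPM in low-state and 3.47 to 11.8 CPM in high-state libraries, and *Ly6g*, which defines mouse neutrophils, stayed at 0.26 CPM or less in all 8. T and NK cell markers summed to 9.14 to 24.7 and 23.2 to 32.5 CPM, of which the chemokine *Ccl5* made up 2.45 to 4.32 and 9.55 to 21.6 CPM. B-cell markers summed to 9.38 to 16.4 and 3.84 to 8.13 CPM. The part of these cell markers in the differences above was not tested.

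The markers of the kidney itself were present in all libraries. *Slc34a1*, the phosphate transporter of the proximal tubule, had 3458 to 6299 CPM and was not called. Of 14 markers of the early proximal tubule, 2 were higher (14.3%, against 8.54% of all genes). They were *Lrp2* and *Cubn*, which encode the endocytic receptors megalin and cubilin, at 3454 ± 672 against 1400 ± 351 CPM and 562 ± 114 against 258 ± 36.2 CPM. Of 12 thick ascending limb markers, *Egf* and *Slc12a1* were higher (16.7%), with log2 differences of 1.41 and 1.09. Of 11 distal convoluted tubule markers *Egf* alone was higher (9.09%, near the share of all genes). The thick ascending limb medians by library overlapped between the sets. Summed levels of that list did not, at 3984 to 6768 CPM in low-state and 7607 to 11256 CPM in high-state libraries. For the distal convoluted tubule the medians overlapped too, and the sums were 2891 to 3355 and 4450 to 6134 CPM. Markers of the inner medulla, papilla and thin limb were higher in 4 of 11 (36.4%), with a median log2 difference of 0.59. Their library medians were 0.29 to 0.84 in high-state and -0.17 to 0.11 in low-state females. Their summed level overlapped, however, at 2868 to 3679 CPM in high-state and 2824 to 3747 CPM in low-state libraries. Of 19 endothelial markers, 3 were higher (15.8%) and 2 were lower (10.5%), against 8.54% and 5.94% of all genes. The part of these marker lists in the other differences was not tested. Of 14 podocyte markers 3 were higher (21.4%), and of 13 principal cell markers none was called in either direction. The podocyte medians by library were -0.18 to 0.33 in low-state and 0.36 to 0.85 in high-state females. Mesangial and smooth muscle markers were higher in 5 of 13 (38.5%), among them *Myh11* and *Mcam*. Their medians by library were -0.08 to 0.21 in low-state and 0.56 to 1.01 in high-state females. Adrenal markers summed to at most 5.22 CPM in any library. Brown-fat *Ucp1* was at 94.3 CPM in NP female 3 and 28.7 CPM in LP female 5, and at most 1.51 CPM in the other 6 libraries.

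Mitochondrial and ribosomal genes had negative differences, most of them small. All 10 compared genes of the mitochondrial genome had a negative difference and 6 were lower, and the cytochrome oxidase gene *mt-Co1* had 42917, 40216 and 65726 CPM in the low-state libraries and 23612 to 31981 CPM in the high-state libraries. Of 61 cytosolic ribosomal protein genes, 61 had a negative difference with a median of -0.39 on the log2 scale, but *Rps23* alone was called. By library the ribosomal median overlapped between the sets. It was 0.38 in NP female 3, -0.06 and -0.33 in LP females 1 and 2, and -0.73 to 0.10 in the high-state libraries, relative to the low-state mean. Nuclear genes of oxidative phosphorylation had 3 of 69 lower, a share of 4.35% against 5.94% of all genes, and their medians by library overlapped as well, at -0.24 to 0.36 in low-state and -0.65 to 0.02 in high-state libraries. For the mitochondrial genome the median difference of -0.74 was -0.39 without NP female 3, -0.36 among LP females and -1.28 among NP females. Cell-cycle genes were lower in 4 of 24 (16.7%), among them *Birc5* and *Mcm3*, and *Mki67* was not called.

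**Figure D4:**
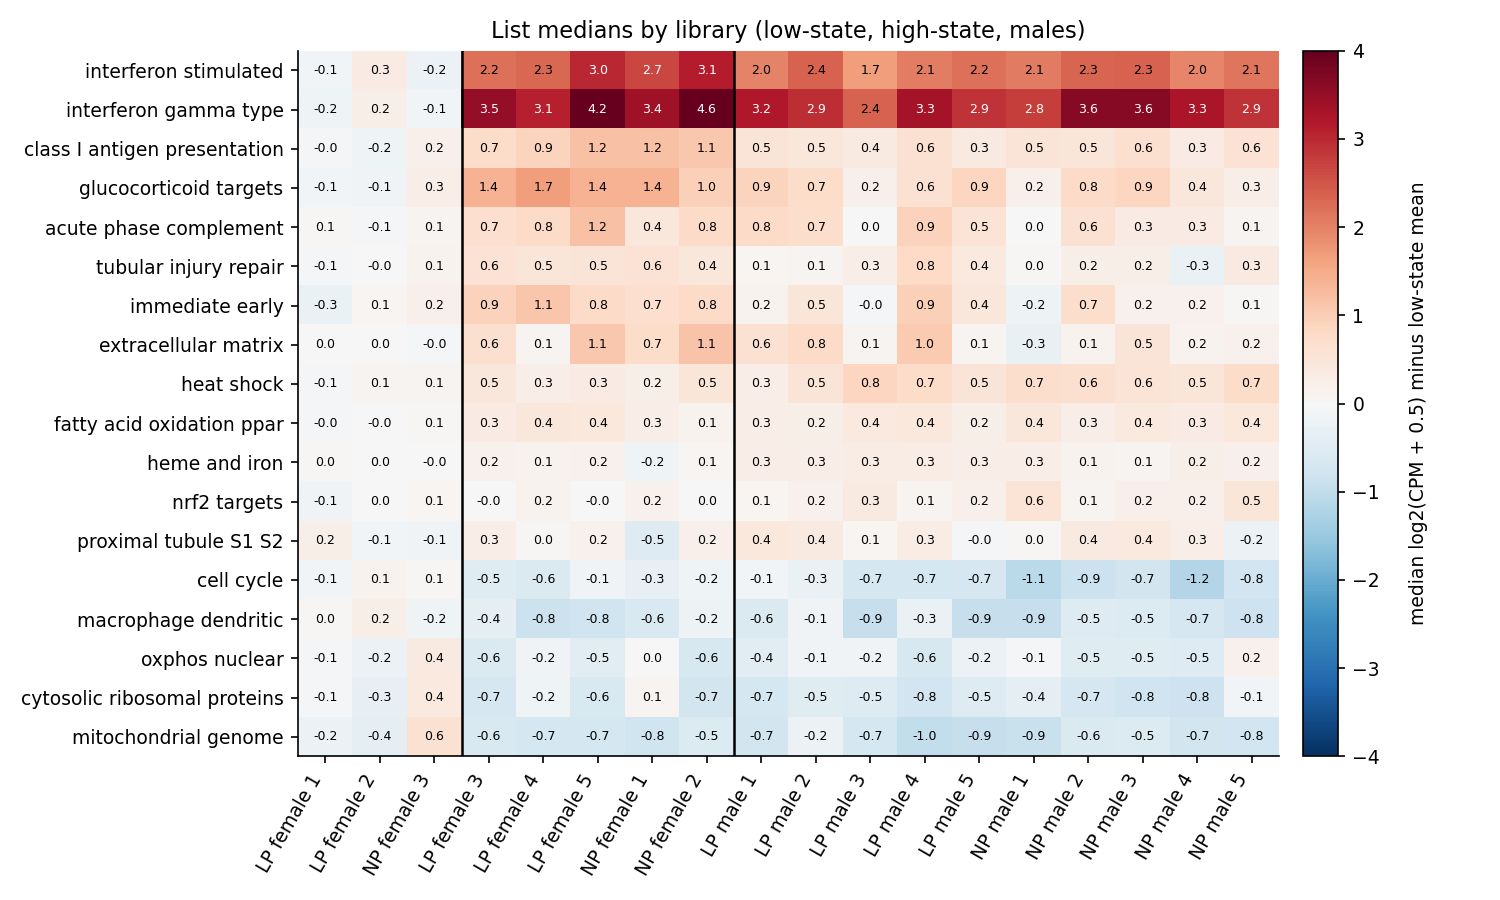
Median over list members of log2(CPM + 0.5) minus the low-state mean, for 18 lists in 3 low-state females, 5 high-state females and 10 males, on TMM scaling over all 18 libraries. The interferon-stimulated median was 2.19 to 3.14 in the high-state females and 1.68 to 2.37 in the males, while the glucocorticoid median was 0.97 to 1.68 and 0.19 to 0.90.

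The sets also differed in properties of the libraries. The mitochondrial share of counts was 10.4% to 16.5% in low-state, 6.74% to 8.70% in high-state and 5.47% to 8.92% in male libraries, and the 10 most abundant genes held 16.3% to 22.3%, 12.8% to 13.7% and 10.8% to 15.1%. Reads that fell on no annotated feature made up 4.66% to 5.70% in low-state and 3.63% to 4.46% in high-state libraries, and multimapping reads 7.92% to 12.6% and 6.76% to 7.37%. NP female 3 had the highest mitochondrial share. Over genes, the log2 difference had a Spearman correlation of 0.25 with exon length (13507 genes), 0.25 with mean count and -0.12 with GC content, and genes share these libraries and are not replicates. Between 14475623 and 19750111 reads were counted on genes in low-state libraries and between 15454025 and 23562411 in high-state libraries, so depth overlapped. The part of these measures in the differences was not tested.

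Whether other genes move with the 5 markers was tested in the 10 males, whose libraries the choice of sets did not use. Each male was given a score, the mean log2 CPM of the 5 genes, and the slope of every other gene on the score was tested with diet as a covariate. The score covered 0.92 on the log2 scale, from -0.44 in LP male 3 to 0.49 in NP male 3, so the males spanned far less than the 2 female sets. NP male 3, NP male 2, LP male 4 and LP male 1 had the highest scores and the highest medians of the adipocyte list. These medians were 0.44, 0.26, 0.44 and -0.01 relative to the low-state mean, against -0.89 to -0.38 in the other males. Of 6 adipocyte genes tested, 5 had a positive slope of any size, with a median of 1.22. The part of adjacent fat in the male slopes was not tested. Of 13176 genes tested, 46 (0.349%) had a positive and 16 (0.121%) a negative slope at an adjusted p under 0.05 (edgeR's quasi-likelihood test, adjusted by the method of Benjamini and Hochberg), and 3386 had an unadjusted p under 0.05. Among the 1154 genes higher in high-state females, 1126 were tested in males: 32 of these had a positive and 4 a negative slope at that threshold, and 916 (81.3%) had a positive slope of any size, against 51.1% of all genes. Of 702 lower genes tested, 2 had a negative slope at the threshold, *Neurl4* and *Tpm3-rs7* (a copy of *Tpm3*, so its share of reads is uncertain), none a positive one, and 426 (60.7%) had a negative slope of any size. Since 51.1% of all genes had a positive slope, the excess was smaller for the lower genes than for the higher genes.

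*Ifit2*, an antiviral gene of the IFIT family, rose by 1.35 on the log2 scale per unit of score (SE 0.16, adjusted p = 0.0118, edgeR quasi-likelihood test), and in females had 13.6 ± 5.19 CPM in the low-state and 374 ± 218 CPM in the high-state set. *Zbtb16* had a slope of 3.10 (SE 0.38, adjusted p = 0.0131, same edgeR test), and *C3*, the central complement component, one of 2.49 (SE 0.29, adjusted p = 0.0118, same edgeR test). *C3* was not called in females, where NP female 1, at 49.2 CPM, lay below the 59.4 CPM of LP female 1. The interferon-inducible GTPase *Tgtp2* and the antiviral TRIM-family gene *Trim30a* also had positive slopes, of 1.65 and 1.32. *Neurl4* had a slope of -0.85 and was at 169 ± 8.07 CPM in low-state and 111 ± 3.11 CPM in high-state females, and *Clba1*, *Tysnd1* and the noncoding *Gm65143* also had negative slopes, of -2.24, -1.25 and -2.14. By list, 8 of 39 interferon-stimulated genes, 5 of 16 interferon gamma genes, 4 of 35 glucocorticoid targets and 4 of 23 acute-phase genes had a positive slope at the threshold. For slopes of any size, some other lists went against the female direction. Positive slopes were found in 13 of 14 macrophage and dendritic cell genes and 15 of 19 cell-cycle genes, lists with negative medians in females. Of heat-shock genes, with a positive median in females, 2 of 20 had a positive slope. Ribosomal protein genes kept the female direction, with 1 of 61 positive. *Mx2* and *Oasl1* did not pass it, with adjusted p of 0.0592 and 0.794 by the same edgeR test. *Havcr1* did not pass either, with a slope of -0.44 (SE 1.46).

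These male calls rested on single libraries. Without NP male 1 there were 0 calls, without NP male 2 or NP male 5 there was 1, without LP male 3 there were 8, without LP male 4 there were 40, and without NP male 4 there were 2152. With a score of *Fkbp5* or of *Hmox1* alone there were also 0 calls, at 550 and 329 genes with an unadjusted p under 0.05. The share of higher genes with a positive slope was 77.9% to 82.2% with 1 male left out. It depended on the score: 82.3% with the 3 interferon genes, against 51.9% of all genes. With *Fkbp5* alone it was 63.5% against 46.9%, and with *Hmox1* alone 51.0% against 49.7%.

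**Figure D5:**
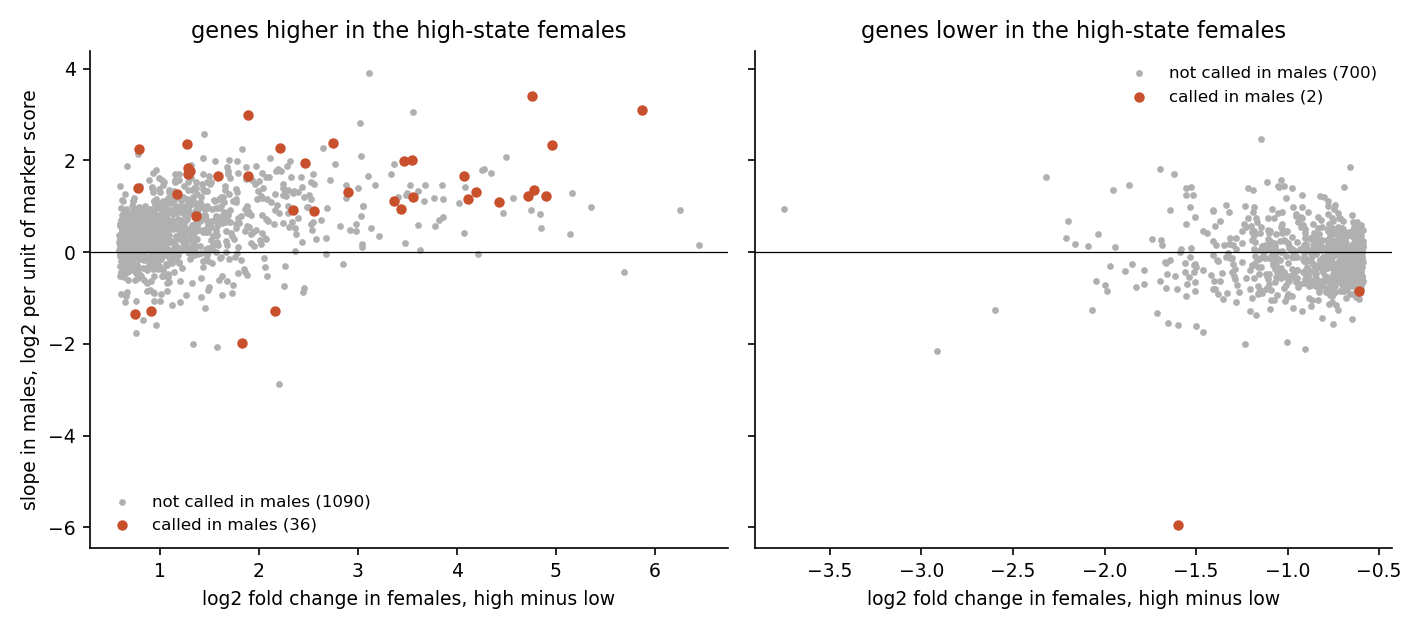
Slope in 10 males (log2 per unit of the marker score) against the log2 difference in females (high-state minus low-state), for 1126 higher genes (left) and 702 lower genes (right). Orange points have an adjusted p under 0.05 in males (36 and 2 genes), and most higher genes lie above 0.

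Against the low-state females, all 10 males were higher for 519 of the 1154 higher genes (45.0%) and lower for 497 of the 803 lower genes (61.9%). Over all genes compared these shares were 13.8% and 13.2%. The male mean lay nearer the high-state than the low-state mean for 64.5% of the higher genes. That share was 83.2% for the lower genes and 62% for all genes compared, so for the higher genes it was close to that of all genes. Since the same low-state libraries chose the genes and entered this comparison, the shares are a description. Exceptions included *Serpina6*, at no more than 1.11 CPM in any male, below the low-state females. *Sgk1*, the serum- and glucocorticoid-regulated kinase, was at 60.6 to 112 CPM in males and 282 to 577 CPM in high-state females on the scale of all 18 libraries. On that scale *Havcr1* was at 4.22 to 45.4 CPM in males, 1.63 to 5.37 CPM in low-state and 98.3 to 319 CPM in high-state females. For *Havcr1* and *Ftcd* the male mean lay nearer the low-state mean.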

How the data were processed

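RNA from kidney was sequenced from 18 mice, and the 8 female libraries were divided into low-state and high-state sets as given above. The members and the gene lists were chosen with earlier results of these data known. The authors deposited raw counts of reads per gene without normalization, from trimmed reads aligned to GRCm39 with STAR and GENCODE vM36. The library was non-directional, so the unstranded counts were used and genes that overlap on opposite strands cannot be told apart. Gene positions are those of GENCODE vM39. The libraries held 14050486 to 23562411 counted reads. Reads not assigned to a single gene (28.6% to 36.1%) were left out.

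Female differences were fitted with edgeR 4.0.16 (R 4.3.3) after TMM normalization over genes with at least 10 counts in each of the 8 libraries, with no p-value. The male slopes were tested with edgeR's quasi-likelihood test, diet as a covariate, Benjamini-Hochberg adjustment and a prior count of 2 in the score. P-values measure the spread between mice. Male CPM were scaled over all 18 libraries. Named genes are the 5 marker genes, the 15 highest and 15 lowest called genes with a mean count of at least 50 and the same direction in both diets (Gm, Rik, LOC and pseudogene names left out), up to 6 called members of each list with defining members near 0, and the 5 male genes with the smallest adjusted p in each direction; other genes were named after their values were seen, and some genes that this rule names are not reported here. Both procedures were tested on simulated data.

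Alternatives were other filters, DESeq2 1.42.0 with its size factors and Wald test, 2 scalings by library total, diet as a covariate, single diets, other fold limits, other scores, the replicate number as a block, and leaving out each library. Python 3.11.15 with pandas 2.3.3, numpy 2.4.6 and matplotlib 3.10.9 served for tables and figures.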

Additional observations from a re-analysis of the deposited data

Results flagged for a closer look

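Across 62 groups of values (the named genes and library measures in the 5 high-state females, and the library measures and score in the 10 males), 4 had a library far from the others of its group. Chance gives about 1 in 20, so the number flagged was near that of chance. *Arhgef39* had 5.04 CPM in NP female 1 and 2.04 to 2.87 CPM in the other 4 high-state females. NP male 1 had 14.8% of its reads unmapped, against 11.8% to 13.3% in the other males. LP male 4 had 15983 genes with at least 10 counts, against at most 15332 in the other males. In NP male 2 the ratio of counts on the first strand to those on the second was 1.01, the lowest of the 10.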

How the results depend on the processing

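Against 1154 higher and 803 lower genes in females, there were 1943 higher genes with no filter on low counts, and 1299 lower genes when libraries were scaled by totals free of mitochondrial and the 10 most abundant genes. Within LP females 1494 genes were lower, and within NP females, with a single low-state library, 2724 were higher and 2610 lower. At least 2-fold differences were 612 and 293, and those with no fold limit 1747 and 1434. The called members of gene lists in the high-state and low-state females numbered 241, and 445 within NP females. Leaving out 1 female gave 1111 to 1456 higher and 829 to 1271 lower genes. The other female settings kept each count within 1.5 times.

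In males, 62 slopes passed the threshold, against 348 with no filter, 1283 with the DESeq2 Wald test, 17 with no diet term, 110 with a score of the 3 interferon genes, and 0 with a score of *Fkbp5* or *Hmox1* alone (edgeR, 550 and 329 at an unadjusted p under 0.05). Leaving out 1 male gave 0 to 2152. With the *Hmox1* score, 51.0% of the higher genes had a positive slope, and the slopes reversed for *Ifit2* (-0.043), *Zbtb16* (-1.28), *Clba1* (0.15), *Tysnd1* (0.27), *Gm65143* (0.56) and *Neurl4* (0.28); the cause was not tested. With the replicate number as a block there were 15 male slopes, and 1460 higher and 1106 lower genes in females, but same-numbered libraries did not deviate together (correlations of -0.322 to 0.204 between low-state and high-state females, and -0.281 to 0.293 between LP and NP males), so they share only a number. With 3 low-state mice and a male score range of 0.92, small differences were not resolved.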
